A study of Homo sapiens with 40 samples.

Results

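The RNA of 48 genes of the ADAM, ADAMTS, ADAMTS-like, MMP and TIMP families was followed in BEAS-2B, a line of immortalised human airway epithelial cells, under drugs that raise cAMP. The genes were taken by symbol: every name in the expression table made of ADAM, ADAMTS, ADAMTSL, MMP or TIMP and a number, with at most 1 letter after it, which gave 48 of 15788 genes. They were 13 ADAM, 14 ADAMTS, 5 ADAMTSL, 13 MMP and 3 TIMP genes.

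ADAM and ADAMTS proteins and MMPs are zinc-dependent proteases. ADAMs sit in the membrane and many release the outer part of other membrane proteins, such as ligands of the EGF receptor and of Notch. ADAMTS proteases are secreted and cut proteoglycans, procollagens and other matrix proteins, ADAMTS-like proteins keep the matrix-binding parts without a protease domain, and MMPs cut collagens and many other matrix proteins. TIMPs are secreted inhibitors that bind the active site of MMPs and of some ADAM and ADAMTS proteases. In the airway these families take part in repair and remodelling of the epithelium and the matrix under it.

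The cells were serum-starved overnight and treated for 2 h in 10 groups of 4 libraries. The groups were vehicle, RNO (roflumilast N-oxide, which inhibits the cAMP-degrading PDE4 enzymes) at 1 µM, ONO (the agonist ONO-AE1-329, which acts on EP4, a receptor of prostaglandin E2) at 0.1 nM, 1 nM and 1 µM, vilanterol (a β2-adrenoceptor agonist) at 100 nM, and each of these 4 agonist treatments with RNO. All groups were the same cell line, and the labels do not say whether the replicates were separate cultures, so p-values rest on the spread among libraries that may be technical repeats. Values are TPM, transcript abundance corrected for length and for library size and then normalised between libraries by the authors, so levels of different genes can be set side by side. The depth of the libraries is unknown because no read counts were analysed here. Of the epithelial markers KRT8, KRT18 and KRT17 were high, at medians of 351, 289 and 495 TPM over the 40 libraries, whereas EPCAM and CDH1 were at 0.255 and 0.726 TPM. The mesenchymal markers VIM and COL1A1 were at 1307 and 494 TPM. Of 6 mesenchymal markers 5 had a median of at least 1 TPM, against 3 of 9 epithelial ones, 5 of which were in the table. The values of other lineages were low for endothelial cells (PECAM1 0.116 and VWF 0.307 TPM), while CD68, a lysosomal protein used as a leukocyte marker, was at 12.6 TPM.

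Vehicle replicate 3 stood apart for these genes. It was the lowest of the 4 vehicle libraries for 18 of the 30 genes that were tested (60%), against 37.8% of all 12591 genes tested. Its median distance from the mean of the other vehicle libraries on the log2(TPM + 1) scale was -0.15 over the 30 genes and 0.00 over all genes. ADAMTS12 (-0.82), ADAMTS5 (-0.64), ADAM12 (-0.50) and ADAMTS15 (-0.42) lay furthest below. Most calls of these genes against vehicle are therefore given with and without this library. Combinations with RNO are also set against RNO alone, a group that does not contain it. Summed TPM and the related genes are given with all vehicle libraries only.

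Levels spanned over 3 orders of magnitude, as the plot of all 48 genes shows. The 2 most abundant inhibitors and 1 sheddase led: TIMP2 had a mean of 285 TPM over the 40 libraries, ADAM9 of 176 TPM and TIMP1 of 126 TPM. TIMP1 and TIMP2 together took a median of 41.8% of the summed TPM of the 48 genes, and ADAM9 took 17.9%. The secreted proteoglycanase ADAMTS1 followed at 83.6 TPM, then ADAM15 at 50.2 TPM, the membrane-bound collagenase MMP14 at 35.1 TPM, ADAMTSL4 at 34.6 TPM, and the principal sheddases ADAM17 and ADAM10 at 31.8 and 30.6 TPM. ADAMTS15, a proteoglycanase that cuts aggrecan and versican, was low by comparison, at a mean of 4.61 TPM, close to the collagenase MMP1 at 4.69 TPM. The gelatinase MMP2 was at 1.10 TPM.

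**Figure D1:**
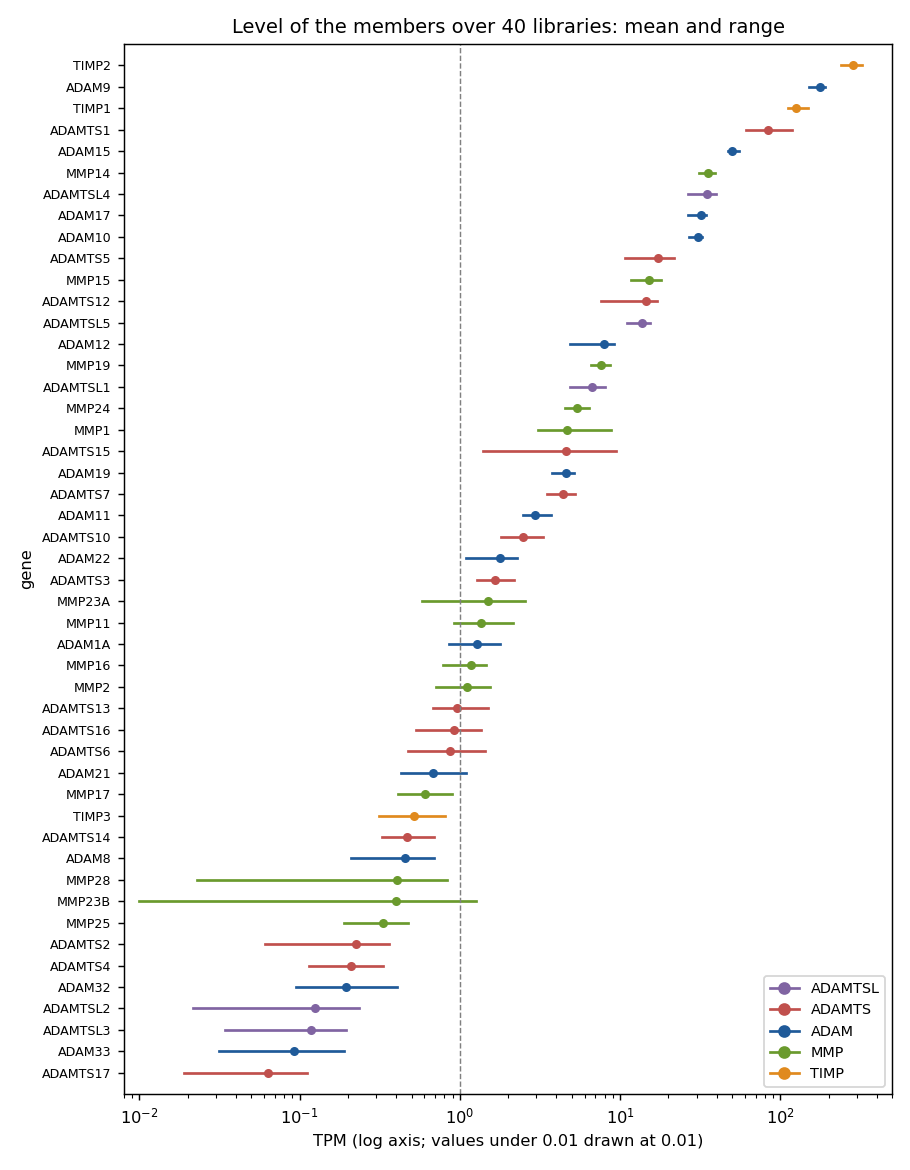
Mean TPM (points, log axis) and range over the 40 libraries (lines) of the 48 genes, coloured by family. The dashed line marks the mean of 1 TPM that a gene needed to be tested; TIMP2, ADAM9 and TIMP1 lie above 100 TPM and 18 genes lie left of the line.

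Tested were the 30 genes whose mean over the 40 libraries reached 1 TPM: 9 ADAM, 7 ADAMTS, 3 ADAMTSL, 9 MMP and 2 TIMP genes. The other 18 were ADAM8, ADAM21, ADAM32, ADAM33, ADAMTS2, ADAMTS4, ADAMTS6, ADAMTS13, ADAMTS14, ADAMTS16, ADAMTS17, ADAMTSL2, ADAMTSL3, MMP17, MMP23B, MMP25, MMP28 and TIMP3. Their means lay between 0.0632 TPM (ADAMTS17) and 0.963 TPM (ADAMTS13), and MMP23B was listed at 0 in 4 libraries. MMP23A and MMP23B are near-identical copies whose reads can be split between them, and ADAM1A is a pseudogene, so their values are uncertain.

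ADAMTS15 changed most. In the vehicle libraries it was at 1.95, 2.52, 1.39 and 2.16 TPM (replicates 1 to 4). With vilanterol it was at 8.74, 9.43, 7.81 and 8.64 TPM, and with ONO at 1 µM at 5.62, 5.19, 4.80 and 5.91 TPM. Every library of both agonists lay above every vehicle library. The mean rose from 2.003 ± 0.470 TPM (SD, n = 4) to 8.65 ± 0.662 TPM with vilanterol, 4.32-fold, and to 5.38 ± 0.491 TPM with 1 µM ONO, 2.69-fold. On the log2(TPM + 1) scale, which understates the change of low genes, these rises were 1.70 ± 0.10 (SE) and 1.10 ± 0.10, with adjusted p = 4.6e-15 and 7.9e-10 in limma's test. They were 1.59 and 0.99 without vehicle replicate 3 (limma adjusted p = 5.5e-14 and 1.04e-08). In RNA of whole cultures, more cells with a transcript and more of it per cell cannot be told apart.

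The group means of ADAMTS15 rose with the ONO concentration, but with all libraries only the step from 1 nM to 1 µM passed the test. At 0.1 nM the libraries were at 2.11, 2.54, 1.91 and 2.40 TPM, within the spread of vehicle, and the log2 difference of 0.12 did not pass the test (limma adjusted p = 0.83). At 1 nM they were at 2.48, 3.52, 2.95 and 2.87 TPM. The lowest of these lay just under the highest vehicle library, and the rise of 0.41 passed the test at adjusted p = 0.044 in limma, but at 0.30 and adjusted p = 0.31 without vehicle replicate 3 it did not. It was also lost without vehicle replicate 1 or 4 or replicate 2, 3 or 4 of the treated group (limma adjusted p between 0.054 and 0.21). With the replicate number as a block (a term in the model for each number) and vehicle replicate 3 left out, it passed at 0.33 (limma adjusted p = 0.0059). The step from 1 nM to 1 µM was a rise of 0.69 ± 0.10 (limma adjusted p = 2.9e-05), with all libraries of 1 µM above all of 1 nM. The step from 0.1 nM to 1 nM, 0.29 ± 0.10, did not pass (limma adjusted p = 0.83).

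**Figure D2:**
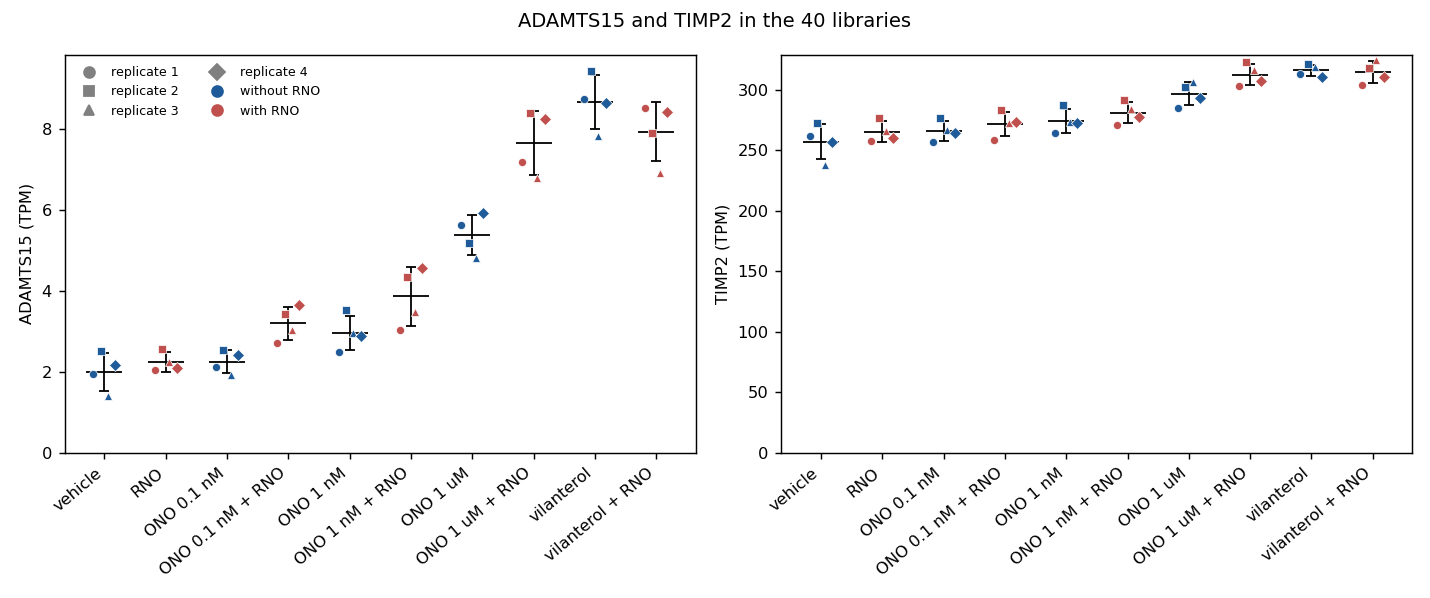
TPM of ADAMTS15 and TIMP2 in each of the 40 libraries, by group, with the symbol giving the replicate number, the colour the presence of RNO, and horizontal bars and whiskers the mean and SD of 4 libraries. ADAMTS15 climbed from 2.003 TPM in vehicle to 8.65 TPM with vilanterol, while TIMP2 moved between 257 and 316 TPM.

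RNO alone left ADAMTS15 at 2.05, 2.57, 2.24 and 2.09 TPM, overlapping vehicle (log2 difference 0.12, limma adjusted p = 0.64). With RNO, 0.1 nM ONO gave 2.70, 3.42, 3.02 and 3.64 TPM, 1 nM ONO 3.03, 4.35, 3.48 and 4.57 TPM, and 1 µM ONO 7.18, 8.39, 6.77 and 8.24 TPM. At 0.1 nM and at 1 µM all libraries with RNO lay above all libraries of the same ONO concentration without it, and at 1 nM the 2 groups overlapped. Vilanterol with RNO gave 8.51, 7.90, 6.90 and 8.42 TPM, overlapping vilanterol alone. Over vehicle these 4 combinations rose by 0.49, 0.70, 1.54 and 1.58 (limma adjusted p = 0.0065, 1.8e-05, 8.1e-14 and 2.7e-14), and without vehicle replicate 3 the first of them did not pass (0.39, adjusted p = 0.075), but with the block as well it did (0.42, limma adjusted p = 0.00051). Over RNO alone the rises were 0.37 (adjusted p = 0.13), 0.57 (0.00065), 1.41 (8.7e-13) and 1.46 (2.7e-13).

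Adding RNO raised ADAMTS15 by 0.44 ± 0.10 on the log2 scale at 1 µM ONO (limma adjusted p = 0.034), from 5.38 to 7.65 TPM. This call was lost without any one of the 4 libraries of 1 µM ONO or of replicates 1, 2 and 4 of its combination with RNO (0.39 to 0.48, limma adjusted p between 0.052 and 0.15), and with a pseudocount of 0.1 or when these 2 groups were fitted alone. At 0.1 nM and 1 nM ONO the differences were 0.37 ± 0.10 (adjusted p = 0.12) and 0.29 ± 0.10 (adjusted p = 0.63), which did not pass limma's test. With the replicate number as a block they did, at adjusted p = 0.0022 and 0.045. The difference at 1 µM ONO passed under the block too (0.44 ± 0.07, limma adjusted p = 0.00034). With vilanterol the difference was -0.11 ± 0.10 (limma adjusted p = 1). The interaction, the RNO difference with an agonist less that without one, was 0.25 ± 0.15, 0.17 ± 0.15 and 0.32 ± 0.15 for the 3 rising ONO concentrations and -0.23 ± 0.15 for vilanterol, and none passed the test with all libraries and no block (limma adjusted p between 0.58 and 0.89). With the block and vehicle replicate 3 left out, that of 1 µM ONO was called at 0.39 ± 0.10 (limma adjusted p = 0.020; 5.42% of all genes), though in these groups not every same-numbered pair of libraries deviated together.

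In the order of the 10 group means, ADAMTS15 went from vehicle (2.003 TPM) through RNO (2.24), 0.1 nM ONO (2.24), 1 nM ONO (2.96), 0.1 nM ONO with RNO (3.19), 1 nM ONO with RNO (3.86), 1 µM ONO (5.38), 1 µM ONO with RNO (7.65) and vilanterol with RNO (7.93) to vilanterol (8.65 TPM). Neighbours in this order overlapped except at 2 places: 1 µM ONO lay apart from 1 nM ONO with RNO, and 1 µM ONO with RNO apart from 1 µM ONO. Between the agonists, each at the concentration that the study calls maximal, ADAMTS15 was lower with ONO by -0.60 ± 0.10 on the log2 scale (limma adjusted p = 0.00047).

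TIMP2, which inhibits MMPs and also serves MMP14 in the activation of the MMP2 precursor, rose by a smaller factor from a far higher level. The vehicle libraries were at 262, 272, 238 and 257 TPM, those of 1 µM ONO at 285, 302, 306 and 293 TPM, and those of vilanterol at 313, 321, 318 and 310 TPM. Neither treated group overlapped vehicle. The rises were 0.21 ± 0.04 and 0.30 ± 0.04 on the log2 scale (limma adjusted p = 0.00011 and 7.4e-08), or 1.15-fold and 1.23-fold. They were 0.17 and 0.26 on the log2 scale without vehicle replicate 3 (limma adjusted p = 0.0011 and 5.97e-07). In TPM the gain with vilanterol took TIMP2 from a mean of 257 to 316, and the sum of the 48 genes went from 937 ± 35.6 to 1031 ± 16.2 TPM (SD, n = 4).

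TIMP2 was also higher with 1 nM ONO and RNO, at 271, 291, 284 and 278 TPM, by 0.13 ± 0.04 (limma adjusted p = 0.037), and this call was lost without vehicle replicate 3 (0.09, adjusted p = 0.20), and also without vehicle replicate 4 or replicate 2, 3 or 4 of the treated group (adjusted p between 0.067 and 0.15). Under the block with vehicle replicate 3 left out the call passed at 0.09 (limma adjusted p = 0.00048). In these 2 groups, though, not every same-numbered pair of libraries deviated together. With RNO, 1 µM ONO gave 303, 323, 316 and 307 TPM and vilanterol gave 304, 318, 325 and 310 TPM, rises of 0.28 and 0.29 over vehicle. Against RNO alone (258, 277, 266 and 260 TPM) these rises were 0.24 ± 0.04 each (limma adjusted p = 8.3e-06 and 3.5e-06), and no library of either combination overlapped RNO. The step from 1 nM to 1 µM ONO was 0.15 ± 0.04 with RNO (limma adjusted p = 0.0074) and 0.11 ± 0.04 without it (adjusted p = 0.13). The step with RNO did not pass with libraries rescaled to equal totals or with quantile normalisation (limma adjusted p up to 0.18). TIMP1, the other abundant inhibitor, had group means between 121 and 131 TPM and was called in none of the 26 comparisons, and TIMP3 was under the minimum for testing.

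Of the other ADAM genes tested, 3 were called against vehicle. ADAM9, a broadly expressed sheddase, was at 178, 165, 152 and 167 TPM in vehicle, 182, 182, 180 and 176 TPM with 1 µM ONO, and 188, 184, 180 and 173 TPM with vilanterol. Vehicle replicate 1 overlapped both treated groups. The rises of 0.12 ± 0.03 and 0.13 ± 0.03 passed limma's test (adjusted p = 0.015 and 0.0040). Without vehicle replicate 3 they were 0.08 (adjusted p = 0.11) and 0.09 (adjusted p = 0.035). The call with 1 µM ONO was also lost with libraries rescaled to equal totals. ADAM9 was also called with RNO beside 1 µM ONO (0.15) and vilanterol (0.11). The last call was lost without vehicle replicate 3 (0.07, limma adjusted p = 0.11) or replicate 3 of the treated group (0.10, adjusted p = 0.050). With the block and vehicle replicate 3 left out, all 4 calls of ADAM9 passed (0.07 to 0.11, limma adjusted p between 1.5e-05 and 0.0015). Against RNO alone the 2 combinations with RNO differed by 0.06 and 0.02 (limma adjusted p = 0.34 and 0.75). With the block and vehicle replicate 3 left out, the first of these was called at 0.06 (limma adjusted p = 0.0072; 25.7% of all genes), and the second was not.

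ADAM12, which cleaves IGF-binding proteins and releases membrane-bound growth factors, was at 7.19, 7.41, 4.88 and 7.42 TPM in vehicle. It was at 7.79, 8.12, 8.40 and 7.63 TPM with vilanterol and 7.88, 8.53, 9.15 and 8.08 TPM with vilanterol and RNO. Neither treated group overlapped vehicle, whose replicate 3 was by far its lowest value. The rises of 0.23 and 0.30 passed limma's test (adjusted p = 0.033 and 0.0053). Without vehicle replicate 3 they were 0.11 (adjusted p = 0.30) and 0.17 (adjusted p = 0.057), and neither passed. The call with 1 µM ONO and RNO (0.24) went the same way, to 0.12 (adjusted p = 0.28). Leaving out replicate 2 or 3 of the treated group also ended the calls with vilanterol and with 1 µM ONO and RNO (limma adjusted p between 0.075 and 0.095). With the block and vehicle replicate 3 left out, the rise with vilanterol and RNO passed (0.15, limma adjusted p = 0.0050), and those with vilanterol and with 1 µM ONO and RNO did not (0.08 and 0.09, adjusted p = 0.13 and 0.0998). RNO alone, at 7.35 to 8.49 TPM, was as high as the agonist groups, and vilanterol with RNO differed from it by 0.07 (limma adjusted p = 0.67).

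ADAM22, a member without protease activity that acts as a receptor for the neuronal LGI proteins, was at 1.46, 1.51, 1.09 and 1.38 TPM in vehicle and 1.73, 2.05, 2.10 and 2.02 TPM with 1 nM ONO. The groups did not overlap, and the rise of 0.34 ± 0.09 was called at adjusted p = 0.0498 in limma. It was also called with RNO beside 1 nM ONO (0.32), 1 µM ONO (0.29) and vilanterol (0.25). Without vehicle replicate 3 none of these 4 calls passed (adjusted p between 0.11 and 0.27). Each was lost without some other library too: vehicle replicate 4 or replicate 2, 3 or 4 of the treated group for the calls with 1 nM ONO, with or without RNO, and with vilanterol and RNO, and replicate 2 or 4 of the treated group for 1 µM ONO with RNO (limma adjusted p between 0.050 and 0.15). With the block and vehicle replicate 3 left out all 4 passed, at 0.26, 0.25, 0.21 and 0.17 in the order given (limma adjusted p = 0.0093, 0.0077, 0.012 and 0.039). For 1 nM ONO with RNO, though, not every same-numbered pair with vehicle deviated together. ADAM22 was not called with 1 µM ONO or with vilanterol alone (limma adjusted p = 0.075 and 0.22). With 1 µM ONO it was called under the block, at 0.25 (limma adjusted p = 0.0055), and at 0.18 (adjusted p = 0.0499) when vehicle replicate 3 was also left out.

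The sheddases ADAM10 and ADAM17 were called in none of the 26 comparisons when all libraries were used without the block. With vilanterol ADAM10 differed from vehicle by 0.05 ± 0.04 and ADAM17 by -0.03 ± 0.05. Without vehicle replicate 3 ADAM17 was called lower with vilanterol, at -0.11 ± 0.03 (limma adjusted p = 0.017). With the block in addition it was lower with vilanterol (-0.10, limma adjusted p = 0.0054) and with vilanterol and RNO (-0.07, adjusted p = 0.035). Under the block with all libraries ADAM10 was called higher with RNO beside 0.1 nM, 1 nM and 1 µM ONO, at 0.09 each (limma adjusted p = 0.049, 0.019 and 0.012), and none of the 3 passed when vehicle replicate 3 was also left out (0.05 to 0.06, adjusted p between 0.092 and 0.29).

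ADAMTS10, which binds fibrillin microfibrils, was at 2.07, 2.72, 2.01 and 2.40 TPM in vehicle and at 3.05, 2.91, 2.88 and 3.01 TPM with vilanterol, above every vehicle library. The rise was 0.27 ± 0.08 (limma adjusted p = 0.013), and 0.23 (adjusted p = 0.065) without vehicle replicate 3. With the block and that library left out it was 0.25 (limma adjusted p = 0.0071). Vilanterol with RNO gave 2.74, 3.29, 2.60 and 2.72 TPM. That was a rise of 0.22 over vehicle (limma adjusted p = 0.045; 0.18 and adjusted p = 0.17 without vehicle replicate 3), lost as well without vehicle replicate 1 or 4 or replicate 1, 2 or 4 of the treated group (adjusted p between 0.050 and 0.19). With the block and vehicle replicate 3 left out it passed at 0.20 (limma adjusted p = 0.033). Over RNO alone (1.80, 2.38, 2.13 and 2.28 TPM) the same group was higher by 0.29 ± 0.08 (limma adjusted p = 0.0084), without overlap, and by 0.23 (adjusted p = 0.056 and 0.057) without RNO replicate 1 or without replicate 2 of the combination. With 1 µM ONO the libraries lay between 2.04 and 2.83 TPM, and the difference of 0.09 did not pass (limma adjusted p = 0.57).

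**Figure D3:**
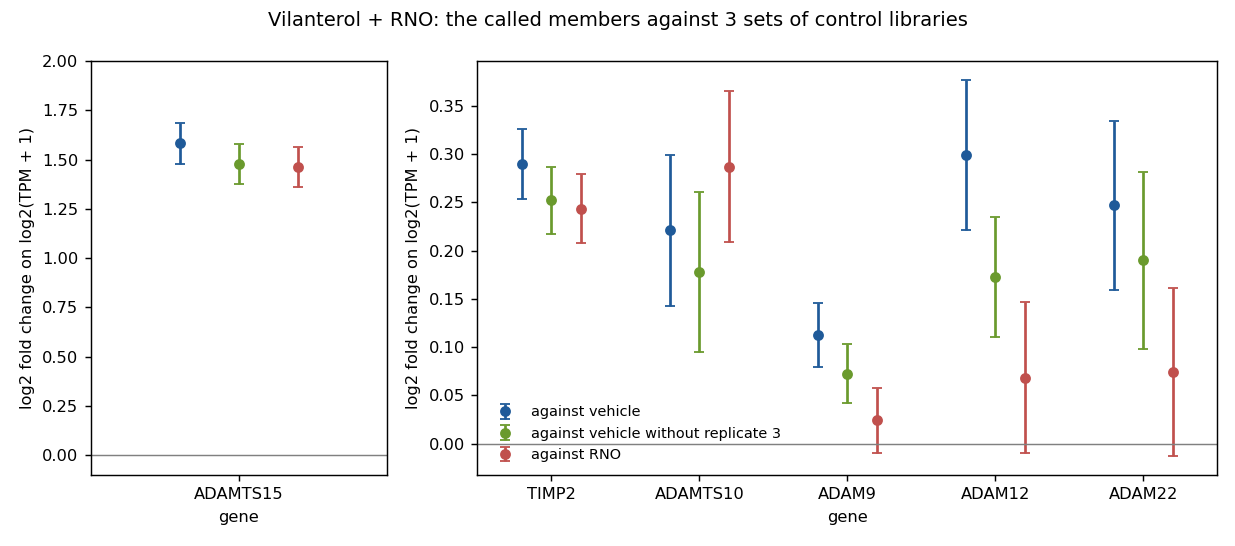
Log2 fold change (on log2(TPM + 1), points with SE) of vilanterol with RNO for the 6 genes called against vehicle, against the 4 vehicle libraries, against vehicle without replicate 3, and against RNO alone, with ADAMTS15 on its own axis. ADAMTS15 (1.58, 1.48 and 1.46) and TIMP2 (0.29, 0.25 and 0.24) changed little with the control, and ADAM9, ADAM12 and ADAM22 were at 0.02, 0.07 and 0.07 against RNO.

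With all libraries and no block the called genes were few and all of them higher. With 0.1 nM ONO 0 of 30 genes were called (0% of all genes; 3 of the 30 had an unadjusted p under 0.05). With 1 nM ONO 2 were called (1.01% of all genes), with 1 µM ONO 3 (7.21%), with vilanterol 5 (17.7%) and with RNO 0 (0.238%; 2 at an unadjusted p under 0.05). With RNO added, 0.1 nM ONO gave 1 (1.12%), 1 nM ONO 3 (3.45%), 1 µM ONO 5 (15.8%) and vilanterol 6 (18.4%). Without vehicle replicate 3 the 4 last counts were 0, 1, 3 and 2, that of 1 nM ONO alone was 0, that of 1 µM ONO 2 and that of vilanterol 4, with ADAM17 lower. That of 1 µM ONO was 5 without vehicle replicate 1 or 2. For the fits without 1 library the shares of all genes are not reported here, so their counts cannot be set against all genes. With all libraries the counts are 10% of the 30 genes at 1 µM ONO, 16.7% with vilanterol and 20% with vilanterol and RNO, near the shares of all genes. These sets of calls share the vehicle libraries. The median log2 difference of the 30 genes was 0.05 with 1 µM ONO and 0.04 with vilanterol, against 0.00 and -0.01 over all genes.

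**Figure D4:**
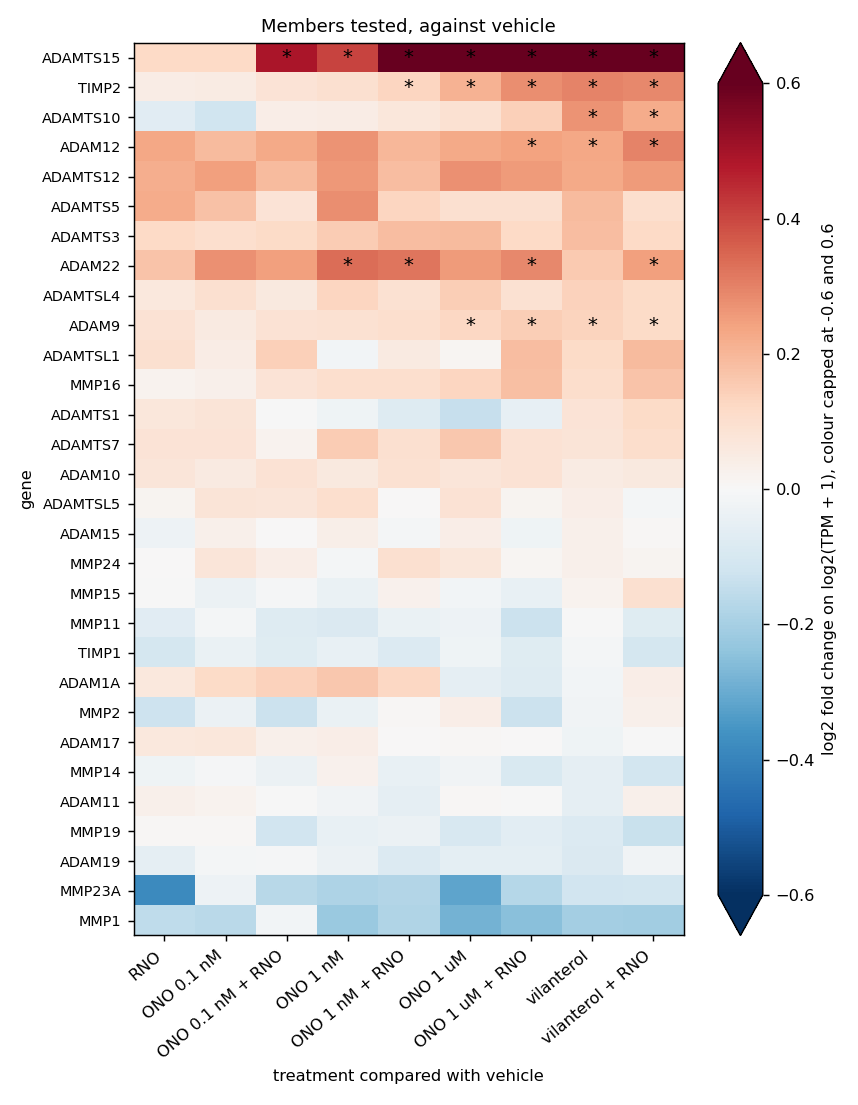
Log2 fold change on log2(TPM + 1) of the 30 tested genes (rows, ordered by vilanterol) in the 9 treatments against vehicle (columns), with asterisks at adjusted p under 0.05. ADAMTS15 carries 7 asterisks and its colour passes the cap of 0.6; no asterisk falls on a lower (blue) value.

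Against RNO alone, fewer genes were called: 0 with 0.1 nM ONO (0.627% of all genes; 1 of the 30 at an unadjusted p under 0.05), ADAMTS15 with 1 nM ONO (1.68%), ADAMTS15 and TIMP2 with 1 µM ONO (12%), and these 2 with ADAMTS10 with vilanterol (15.5%). Adding RNO to an agonist called 0 of 30 genes at 0.1 nM ONO (0.723%; 2 at an unadjusted p under 0.05), 0 at 1 nM ONO (0.238%; 1 unadjusted), ADAMTS15 at 1 µM ONO (0.604%) and 0 with vilanterol (0%; 0 unadjusted). The 4 interactions called 0 genes each (0.135%, 0%, 0.0635% and 0.00794% of all genes; 1 of the 30 at an unadjusted p under 0.05 in each). The step from 0.1 to 1 nM ONO called 0 (0.318%; 2 unadjusted) and 0 with RNO (0%; 0 unadjusted). The step to 1 µM called ADAMTS15 (2.11%) and, with RNO, ADAMTS15 and TIMP2 (3.99%). ADAMTS15 was the single call between 1 µM ONO and vilanterol (2.14%).

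Same-numbered libraries deviated together, and with the replicate number as a block more genes were called in most comparisons. Against vehicle the blocked counts were 9 of 30 for 1 nM ONO (8.47% of all genes), 11 for 1 µM ONO (16.6%), 9 for vilanterol (31.2%), 2 for RNO (5.11%), 4 for 0.1 nM ONO with RNO (5.12%), 11 for 1 µM ONO with RNO (29.7%) and 12 for vilanterol with RNO (32%). With vehicle replicate 3 also left out they were, in the same order, 4 (4.86% of all genes), 8 (14.3%), 9 (26.8%), 1 (2%), 1 (3.43%), 5 (23.1%) and 10 (26.3%). The 5 with 1 µM ONO and RNO were ADAM9, ADAM22, ADAMTS15, TIMP2 and, lower, MMP14. The call with 0.1 nM ONO and RNO was ADAMTS15.

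The blocked calls held falls as well. MMP1 was lower with 1 µM ONO by -0.28 ± 0.09 (limma adjusted p = 0.025) and with 1 µM ONO and RNO by -0.25 ± 0.09 (adjusted p = 0.030), and neither call passed with vehicle replicate 3 removed too (-0.23 and -0.20, limma adjusted p = 0.11 and 0.14). MMP14, the membrane-type collagenase that activates MMP2, was lower with 1 µM ONO and RNO by -0.09 ± 0.03 (limma adjusted p = 0.017) and with vilanterol and RNO by -0.11 ± 0.03 (adjusted p = 0.0040), and both passed when that library was left out (adjusted p = 0.030 and 0.0079). MMP19 was lower with vilanterol and RNO by -0.13 ± 0.04 (limma adjusted p = 0.0096), and without that library at adjusted p = 0.025. ADAMTS1, which cleaves aggrecan and versican, was lower with 1 µM ONO by -0.14 ± 0.04 (limma adjusted p = 0.026; -0.17 and adjusted p = 0.011 without that library). With vilanterol and RNO it was higher by 0.12 ± 0.04 (limma adjusted p = 0.045), a call lost without that library (0.09, adjusted p = 0.18). MMP16, another membrane-type member, was higher with RNO beside 1 µM ONO and vilanterol (0.18 and 0.17, limma adjusted p = 0.025 and 0.031), and neither passed without that library (0.12 and 0.11, adjusted p = 0.17 and 0.20). ADAMTS5, a main aggrecanase, was higher with RNO by 0.22 ± 0.05 (limma adjusted p = 0.0064; 0.17 and adjusted p = 0.048 without that library). It was also higher with 1 nM ONO (0.28, limma adjusted p = 0.00021; 0.0019 without that library) and with vilanterol (0.19, adjusted p = 0.0023; 0.023 without that library). ADAMTS3 was higher with 1 µM ONO and vilanterol (0.19 and 0.18, limma adjusted p = 0.0065 and 0.0044; 0.012 and 0.0081 without that library). ADAMTS7 was higher with 1 nM and 1 µM ONO (0.15 and 0.16, limma adjusted p = 0.029 and 0.0099; 0.015 and 0.0036 without that library). With vehicle replicate 3 left out the block also called ADAM19 lower with vilanterol (-0.13, limma adjusted p = 0.013).

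In the other comparisons the block called ADAMTS15 when RNO was added to 0.1 nM ONO (2.58% of all genes), 1 nM ONO (1.2%) and 1 µM ONO (3.69%). ADAMTS15 was also called with 0.1 nM ONO and RNO against RNO (2.62%). The block called ADAMTS15 and TIMP2 with 1 nM ONO and RNO against RNO (4.8%). Between 1 µM and 1 nM ONO it called ADAMTS15 and TIMP2 as higher and ADAMTS5 as lower (5.51%), and between 1 µM ONO and vilanterol ADAMTS1, ADAMTS15 and TIMP2 as lower with ONO (6.8%). The blocked interaction of 0.1 nM ONO and RNO was called for ADAMTS5 (2.57%), at -0.32 ± 0.07 (limma adjusted p = 0.0064), and at -0.27 (adjusted p = 0.013; 3.51% of all genes) with the block and no vehicle replicate 3. ADAMTS5 was at 19.4, 17.1, 10.8 and 15.6 TPM in vehicle, 20.8, 20.2, 14.2 and 18.03 TPM with RNO, 21.4, 19.3, 13.7 and 16.7 TPM with 0.1 nM ONO and 20.8, 17.98, 11.7 and 16.2 TPM with both. Replicate 3 was the lowest in each of the 10 groups.

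Some proteases differed by replicate number in every group. MMP1, the interstitial collagenase, was highest in replicate 1 in all 10 groups, at 5.95 to 8.75 TPM, while the other 30 libraries lay between 3.09 and 5.10 TPM. These ranges did not overlap, and the mean of replicate 1 was 1.65 times that of the others. ADAMTS1 was highest in replicate 1 and lowest in replicate 4 in all 10 groups, at a mean of 104 TPM in replicate 1 and 76.7 TPM in the others. Its group means lay between 75.4 and 90.5 TPM. ADAMTS12 was highest in replicate 2 in all 10 groups. Of the 30 genes, 3 had the same replicate highest in every group (10%), against 5.73% of all genes. ADAMTS6, below the minimum for testing, was also highest in replicate 1 in all 10 groups, at 1.11 to 1.44 TPM against 0.474 to 0.942 TPM in the other libraries. The labels do not say what a replicate number stands for.

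**Figure D5:**
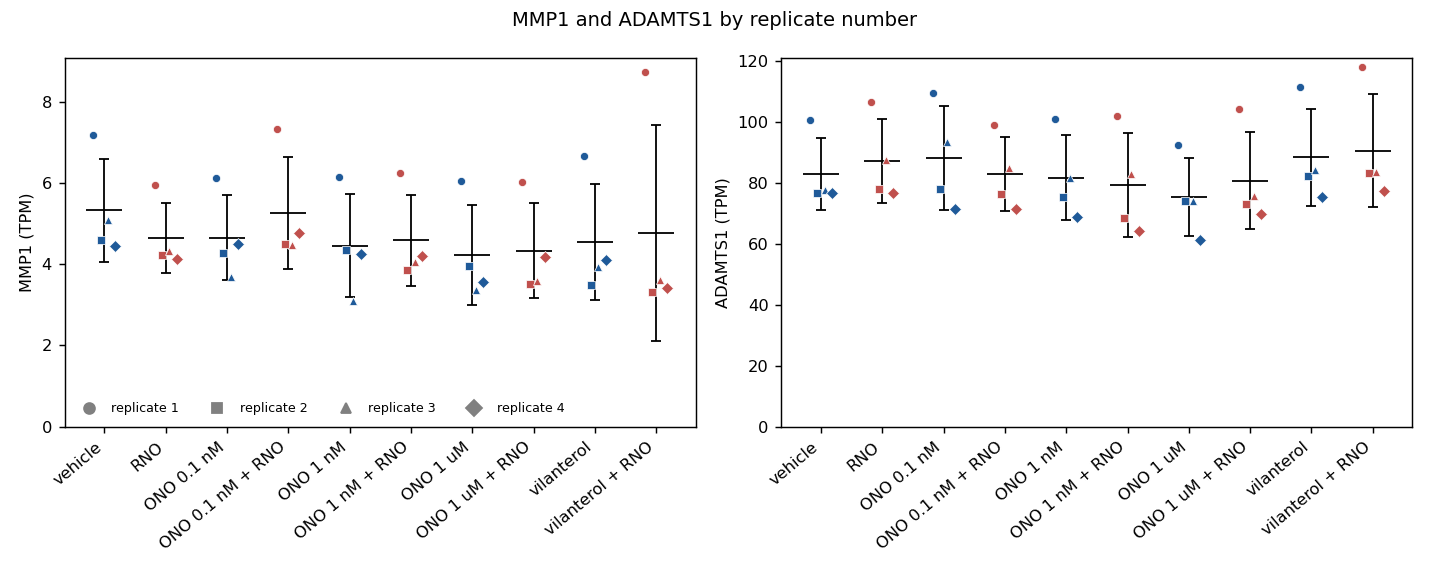
TPM of MMP1 and ADAMTS1 in each library by group, with the symbol giving the replicate number, blue without and red with RNO, and bars and whiskers the mean and SD of 4 libraries. Replicate 1 (circles) was the highest library in each of the 10 groups for both genes.

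With all libraries and no block, no MMP gene passed the test. Without vehicle replicate 1, MMP16 was called higher with RNO beside 1 µM ONO and vilanterol (0.23 and 0.22, limma adjusted p = 0.020 and 0.023), and with quantile normalisation MMP19 was called lower with vilanterol and RNO (-0.16, adjusted p = 0.032). The 6 membrane-type MMPs of the table included MMP14, at group means of 33.3 to 36.7 TPM, and MMP15, at 14.6 to 16.2 TPM. MMP1 differed from vehicle by -0.28 ± 0.22 with 1 µM ONO and by -0.20 ± 0.22 with vilanterol (limma adjusted p = 0.53 and 0.58). The summed TPM of the 13 MMP genes was 76.7 ± 1.93 in vehicle and 74.5 ± 3.05 with vilanterol (SD, n = 4). None of the 3 ADAMTS-like genes tested was called with all libraries and no block. Without vehicle replicate 2 ADAMTSL1 was higher with RNO beside 1 µM ONO and vilanterol (0.25 and 0.26, limma adjusted p = 0.033 and 0.026). Under the block ADAMTSL4 was higher with 1 µM ONO and vilanterol (0.15 and 0.14, limma adjusted p = 0.0028 and 0.0021). Both passed with vehicle replicate 3 left out too (adjusted p = 0.025 and 0.021). Its blocked calls with 1 nM ONO and with RNO beside 1 µM ONO and vilanterol did not pass then (limma adjusted p = 0.12, 0.32 and 0.12).

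Promoter sequence was looked up for the called genes because CREB, the transcription factor that cAMP activates, binds the element TGACGTCA or its shorter form TGACG, and AP-1 binds TGANTCA. The RefSeq table of GRCh38.p14, which holds 250 bases before and 50 from the transcription start, had 29 of the 48 genes, among them 3 of the 6 genes called against vehicle (ADAM12, ADAM22 and ADAMTS10). Not among them were ADAMTS15, TIMP2 and ADAM9. Searched on both strands, the promoters of ADAM12 and ADAM22 and both of ADAMTS10 held none of the 3 motifs. Over the 35116 promoters of the table, 1.85% held TGACGTCA, 24.6% TGACG (which includes every TGACGTCA) and 7.71% TGANTCA. Of the 30 promoters of these families, 8 held TGACG, 1 held TGANTCA (ADAMTS12) and 1 held TGACGTCA, that of ADAMTS6. The promoters of the vilanterol-called gene ADAMTS10 and of ADAMTS6 follow, with the matched bases in capitals, from chr19:8610666-8610965 (minus strand), chr19:8592167-8592466 (minus strand) and chr5:65481871-65482170 (minus strand).

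ADAMTS10, start 1: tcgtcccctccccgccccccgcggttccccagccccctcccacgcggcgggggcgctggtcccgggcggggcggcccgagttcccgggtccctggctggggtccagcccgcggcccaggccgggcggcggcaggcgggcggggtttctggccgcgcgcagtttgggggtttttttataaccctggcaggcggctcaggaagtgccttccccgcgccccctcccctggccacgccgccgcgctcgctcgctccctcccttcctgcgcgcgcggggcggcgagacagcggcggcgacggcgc

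ADAMTS10, start 2: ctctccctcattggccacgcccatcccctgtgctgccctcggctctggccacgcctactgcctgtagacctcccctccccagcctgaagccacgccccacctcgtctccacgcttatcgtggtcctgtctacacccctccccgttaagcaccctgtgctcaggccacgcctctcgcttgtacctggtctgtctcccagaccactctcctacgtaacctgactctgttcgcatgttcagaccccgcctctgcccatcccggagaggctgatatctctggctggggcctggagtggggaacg

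ADAMTS6: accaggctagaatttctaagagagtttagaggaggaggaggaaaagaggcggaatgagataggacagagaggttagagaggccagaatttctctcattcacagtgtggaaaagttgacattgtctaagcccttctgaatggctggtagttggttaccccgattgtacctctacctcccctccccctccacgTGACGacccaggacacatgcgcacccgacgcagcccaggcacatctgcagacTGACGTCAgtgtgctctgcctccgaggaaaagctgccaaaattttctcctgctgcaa

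ADAMTS6 was at 1.39, 0.736, 0.474 and 0.809 TPM in vehicle and at 1.18, 0.645, 0.884 and 0.650 TPM with vilanterol, and these groups overlapped. A match is a description of the sequence and no evidence of binding, and the windows hold only the bases nearest the start.

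Among 61 other genes of the same pathways, 43 were tested: other inhibitors, activating proteases and adaptors, shed ligands and matrix substrates. With 1 µM ONO 4 of the 43 were higher and 2 lower (7.21% of all genes were called), with vilanterol 6 and 2 (17.7%), and with vilanterol and RNO 7 and 4 (18.4%). The 8 calls with vilanterol are 18.6% of the 43, near the share of all genes, and the calls with 1 µM ONO and with vilanterol and RNO are 14% and 25.6%. Each of these counts includes JAG1, which reached the minimum for testing only through the groups where it was high. The median log2 difference of the 43 was 0.01 with 1 µM ONO and 0.01 with vilanterol, against 0.00 and -0.01 over all genes. These lists were written with earlier results of the series known.

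Of the shed ligands, AREG, an EGF receptor ligand released by ADAM17, rose from 3.56 ± 0.632 TPM in vehicle to 6.10 ± 1.43 TPM with 1 µM ONO and 10.6 ± 1.41 TPM with vilanterol (SD, n = 4; limma adjusted p = 0.039 and 1.7e-06). HBEGF, another such ligand, fell with 1 µM ONO from 41.1 ± 7.67 to 26.3 ± 4.11 TPM (limma adjusted p = 0.011), and was at 39.9 ± 6.31 TPM with vilanterol. It was also at 28.3 ± 5.28 TPM with RNO alone and 28.7 ± 3.09 TPM with 1 nM ONO, neither called (limma adjusted p = 0.20 and 0.17). With both 1 µM ONO and RNO it was at 34.7 ± 4.36 TPM, not called against vehicle (limma adjusted p = 0.37). The Notch ligand JAG1 rose from 0.616 ± 0.0499 to 1.32 ± 0.114 and 2.12 ± 0.250 TPM with the 2 agonists. It was at 0.764 TPM with RNO and at 0.757 and 0.796 TPM with 0.1 nM and 1 nM ONO. Its mean over the 40 libraries reached the 1 TPM needed for testing only through the groups where it was high. Its own rise thus admitted it to the test, and its calls are no independent support.

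Of the plasminogen system, which activates several MMPs, the activator PLAT rose from 32.5 ± 1.36 TPM to 38.8 ± 4.01 TPM with 1 µM ONO and 47.1 ± 2.19 TPM with vilanterol (limma adjusted p = 0.00087 and 2.7e-10). The urokinase receptor PLAUR rose with vilanterol from 22.5 ± 1.14 to 38.0 ± 1.18 TPM. TFPI2, a matrix-bound inhibitor of plasmin, rose with vilanterol from 4.71 ± 0.413 to 7.01 ± 0.841 TPM. RHBDF1, an adaptor that ADAM17 needs to reach the cell surface, fell with vilanterol from 9.26 ± 0.611 to 8.03 ± 0.400 TPM. Among the matrix substrates, the collagen COL3A1 was called, with a rise from 1.05 ± 0.220 TPM to 1.70 ± 0.182 TPM with 1 µM ONO and 1.98 ± 0.332 TPM with vilanterol.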

How the data were processed

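RNA of 40 BEAS-2B libraries (directional poly(A) libraries) was measured; per the submitters' processing notes, bcl2fastq 2.18.0.12, kallisto and sleuth were used with the builds GRCh37 and hg19. The deposited values are a normalised signal, TPM adjusted between samples by the authors (column totals 956888 to 1091466), where plain TPM had been assumed. Read depth is unknown. Values were transformed to log2(TPM + 1), and 12591 of 15788 genes (mean of at least 1 TPM) were fitted with limma 3.58.1 in R 4.3.3, with 1 mean per group over all 40 libraries, moderated variances with a trend and 30 residual degrees of freedom. A call needed a p under 0.05 after Benjamini-Hochberg adjustment in each of 26 comparisons; the model was tested on simulated data. The 48 genes were chosen by symbol. Those named with all libraries are ADAMTS15 and every gene called against vehicle, with ADAMTS5 and ADAMTS6 added after their values were seen; of the related genes, those called with 1 µM ONO, vilanterol or vilanterol with RNO, not all of which are reported here. Members, lists and tests were chosen with earlier results of these data known.

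Replicate numbers come from the sample titles. Same-numbered libraries of 2 groups correlated in their deviations from the group means at over 0.1 in 174 of 180 pairs (median r 0.259). They were taken as pairs in every comparison of 2 groups except 1 nM ONO with RNO against vehicle and vilanterol with RNO against RNO. Alternatives were a pseudocount of 0.1, no filter, 2 other scalings, library weights, only the groups compared, the replicate block with and without vehicle replicate 3, and leaving out each library. Strand use in counting is not given in the sources used here, so genes with antisense partners (ADAMTSL4, MMP24 and MMP25) cannot be told apart from them.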

Additional observations from a re-analysis of the deposited data

Results flagged for a closer look

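For 10 of the genes, the highest or lowest library of each group of 4 was compared with the range of the group, and in 8 of 100 groups it lay further from the rest than Dixon's limit for 4 samples. Chance would give about 5 if the groups were independent. Groups of a gene are not independent where 1 replicate number is highest throughout, so the 8 cannot be judged against the 5. ADAM12 was lowest in vehicle replicate 3, at 4.88 TPM, with the others at 7.19 to 7.42 TPM. ADAM22 was lowest in replicate 1 of 1 nM ONO with RNO, at 1.74 TPM, with the next at 1.99 TPM. ADAMTS1 was highest in vehicle replicate 1, at 100.5 TPM, with the next at 77.7 TPM, and in replicate 1 of vilanterol with RNO, at 118 TPM, with the next at 83.6 TPM. MMP1 was highest in replicate 1 of RNO (5.95 TPM), 0.1 nM ONO with RNO (7.33 TPM), 1 nM ONO with RNO (6.26 TPM) and vilanterol with RNO (8.75 TPM), where the next values were 4.33, 4.77, 4.21 and 3.62 TPM. Of the 8, 6 were replicate 1 of MMP1 or ADAMTS1, which was the highest library in all 10 groups for both genes.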

How the results depend on the processing

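Of 36 calls of single genes, 16 passed under every alternative. Over their 576 alternatives 477 passed, 99 did not and 0 changed sign. The calls of ADAMTS15 with 1 µM ONO and with vilanterol, with or without RNO, against vehicle and against RNO, passed in all alternatives run.

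Counts of called genes moved as follows. The shares of all genes under these settings are not reported here, so a change of count may hold for all genes alike. For 1 nM ONO against vehicle (2) the count was 0 with no filter, with libraries rescaled to equal totals, with library weights and with only the groups compared, and 0 to 3 when 1 library was left out. With only the groups compared it was 1 for 1 µM ONO, 2 for vilanterol, 0 for 0.1 nM ONO with RNO, 1 for 1 nM ONO with RNO, 2 for 1 µM ONO with RNO, 2 for vilanterol with RNO, and 0 for RNO added to 1 µM ONO. Library weights gave 3 for vilanterol, 1 for 1 nM ONO with RNO, and 1 for RNO added to 0.1 nM ONO, and a pseudocount of 0.1 gave 0 for RNO added to 1 µM ONO. Leaving out 1 library gave 2 to 5 for 1 µM ONO, 0 to 1 for 0.1 nM ONO with RNO, 1 to 4 for 1 nM ONO with RNO, 3 to 7 for 1 µM ONO with RNO, 2 to 8 for vilanterol with RNO, and 0 to 1 for RNO added to 1 µM ONO. The cause was not tested.

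With the replicate block the counts against vehicle were 9 for 1 nM ONO, 11 for 1 µM ONO, 9 for vilanterol and 2 for RNO. They were 4, 6, 11 and 12 for RNO with 0.1 nM, 1 nM and 1 µM ONO and vilanterol. The 6 for 1 nM ONO with RNO (10% of all genes) is not a paired count. For RNO added to 0.1 nM, 1 nM and 1 µM ONO the block gave 1 each. Over the families of comparisons the block gave 11 against RNO (2.62%, 4.8%, 20.4% and 25.9% of all genes in the 4 comparisons). It gave 3 interactions, ADAMTS5 with 0.1 nM ONO, 1 nM ONO and vilanterol (2.57%, 1.69% and 0.246%). It gave 5 steps of concentration (1.21%, 5.51%, 0.516% and 9.24% in the 4 comparisons) and 3 between 1 µM ONO and vilanterol (6.8%). With vehicle replicate 3 also left out the block gave 4, 8, 9 and 1 for 1 nM ONO, 1 µM ONO, vilanterol and RNO. It gave 1, 6, 5 and 10 for RNO with 0.1 nM, 1 nM and 1 µM ONO and vilanterol, where the 6 stand beside 10.4% of all genes. For RNO added to the 3 ONO concentrations it gave 1, 2 and 2 (3.79%, 2.68% and 6.66% of all genes). Against RNO it gave 20 (3.82%, 7.47%, 25.7% and 31.5% in the 4 comparisons). There were 3 interactions, ADAMTS5 with 0.1 nM and 1 nM ONO and ADAMTS15 with 1 µM ONO (3.51%, 1.46% and 5.42%). There were 6 steps (1.68%, 7.3%, 0.937% and 14.2% in the 4 comparisons) and 3 between the agonists (10.3%). Replicate numbers did not pair 1 nM ONO with RNO and vehicle, vilanterol with RNO and RNO, or the groups of 3 interactions (at least 1 same-numbered pair at 0.1 or under), so there the number is only a shared number.

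Depth is unknown, so no counting error is given, and the 18 genes under 1 TPM were not tested. With no filter on low values TIMP3 was lower with vilanterol (-0.22, limma adjusted p = 0.013), 1 µM ONO with RNO (-0.20, 0.029) and vilanterol with RNO (-0.21, 0.016). Rescaling moved the median of all genes by under 0.05 on the log2 scale. Rescaling to equal totals still ended some calls, among them ADAM9 with 1 µM ONO and TIMP2 with 1 nM ONO and RNO. It also ended that of TIMP2 in the step from 1 nM to 1 µM ONO with RNO.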
